A study of Mus musculus with 4 samples.

Results

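The genes described here encode the proteins of the cytosolic ribosome. They were taken by symbol from the gene list of the deposited matrices: Rpl or Rps followed by a number, with an optional ending a, x, y or l, together with Rplp0, Rplp1, Rplp2 and Rpsa, and without pseudogenes and the Rps6k kinases. 80 symbols had this form and 78 of the 32285 genes also had at least 50 unique molecular identifiers (UMIs, each standing for 1 captured transcript) over the annotated cells. 47 of the 78 belong to the large subunit and 31 to the small subunit. Rpl10l and Rpl3l were the symbols with too few UMIs. The symbol rule leaves out some genes of the same ribosome, among them Rps3a1, Fau, Rpl36al and Rpl22l1. Of these, only Rps3a1 is given below.

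The cytosolic ribosome joins a small subunit, which reads the messenger RNA, to a large subunit, which forms the peptide bonds. Nearly all ribosomal proteins are held in equal number in each ribosome, and the messenger RNAs of these proteins share a start of C and T bases (a terminal oligopyrimidine, or TOP, start) through which the mTORC1 kinase and the protein LARP1 control their translation and stability together. In lymph nodes, resting lymphocytes are known for a high portion of ribosomal protein transcripts in single-cell data, and Rps27l, a paralog of Rps27, is known as a target of p53.

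The cells came from the tumor-draining lymph nodes of wildtype mice, cut out on day 8 after tumor cells were injected. 1 group ate control chow, and the other ate chow with RGX-104 from day 3. RGX-104 is an agonist of the liver X receptors, nuclear receptors for oxysterols. Antigen-presenting cells (APCs) had been sorted along with T cells, and their RNA was sequenced from the 5' end with the 10x single-cell chemistry. Each chow had 1 RNA library, so there are no replicates. The labels do not give the number of mice behind a library. The control library had 7346 barcodes and 31530931 UMIs, and the RGX-104 library 8671 barcodes and 38480769 UMIs. The authors' annotation names 2881 control and 2944 RGX-104 cells, in 10 APC types and 12 T cell types. 95 barcodes occurred in both libraries, and 39 control and 30 RGX-104 annotated cells carried a barcode also found in the other library. Without those cells the RGX-104 to control ratio of the ribosomal protein share was 0.998 in APCs and 1.03 in T cells, beside 0.997 and 1.03 with them.

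The annotation fitted its defining markers in the main. Cd3e, a chain of the T cell receptor complex, stood at 843 UMIs per 1000000 (CPM) in control and 727 in RGX-104 T cells, against 7.52 and 6.93 CPM in APCs. Cd74, the class II invariant chain, stood at 19334 and 20123 CPM in APCs and at 124 and 187 CPM in T cells. Foxp3 reached 433 and 448 CPM in the cells named Treg, whereas Cxcr5 was low in those named Tfh, at 23.4 and 39.4 CPM. C1qa was at 934 and 1672 CPM in macrophages and at 0.611 and 1.86 CPM in all T cells. Of markers of other lineages, the hemoglobin genes Hba-a1 and Hbb-bs were seen almost only in control CD8_01 cells (147 and 190 CPM), and S100a8, a neutrophil gene, at 162 CPM in RGX-104 mcDC1 and at 0 in control mcDC1. The part of these in the values below was not tested. Names of types are those of the authors.

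RefSeq promoters of GRCm38.p6, the assembly behind mm10, were at hand for 58 of the 78 members. The windows of 60 bases below, 40 before and 20 from the start of transcription on, are shown because these genes carry the findings: Rps24 had most UMIs in T cells; Rps28, Rpl38, Rps21, Rps27 and Rpl41 were higher in the RGX-104 library; Rplp0 was lower there; and Rpl12, Rps19 and Rps27l differed widely between cell types. Capitals mark the longest unbroken run of C and T within 25 bases of the start, and the start base is base 41. Rps27l holds another run of the same length just before the one marked.
Rps24, chr14:24490638-24490697, plus strand: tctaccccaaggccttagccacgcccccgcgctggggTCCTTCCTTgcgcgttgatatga
Rpl38, chr11:114668540-114668599, plus strand: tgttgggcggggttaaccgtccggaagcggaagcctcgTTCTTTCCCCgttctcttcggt
Rps27, chr3:90213629-90213688, minus strand: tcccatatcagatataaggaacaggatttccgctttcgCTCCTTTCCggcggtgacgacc
Rps21, chr2:180257339-180257398, plus strand: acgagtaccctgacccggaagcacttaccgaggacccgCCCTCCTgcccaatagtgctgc
Rps28, chr17:33824543-33824602, minus strand: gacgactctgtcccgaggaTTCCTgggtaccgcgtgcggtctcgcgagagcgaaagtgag
Rpl41, chr10:128549149-128549208, minus strand: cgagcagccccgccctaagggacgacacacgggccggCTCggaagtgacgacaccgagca
Rplp0, chr5:115559427-115559486, plus strand: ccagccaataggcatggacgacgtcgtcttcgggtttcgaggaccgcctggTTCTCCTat
Rpl12, chr2:32961672-32961731, plus strand: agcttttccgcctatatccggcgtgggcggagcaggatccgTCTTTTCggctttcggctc
Rps19, chr7:24884873-24884932, plus strand: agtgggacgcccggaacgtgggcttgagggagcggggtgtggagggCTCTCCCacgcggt
Rps27l, chr9:66946046-66946105, plus strand: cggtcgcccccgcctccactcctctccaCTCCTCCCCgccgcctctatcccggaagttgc

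The run of C and T passed through the start base in Rps24 (9 bases), Rpl38 (10 bases), Rps27 (9 bases) and Rps21 (7 bases). In Rps28, higher in the RGX-104 library like the last 3, a run of 4 bases passed through it and the longest run was 5 bases, well before the start, and in Rpl41 the longest run was 3 bases. In Rplp0, Rpl12 and Rps19 the longest run near the start lay after the listed start base, and in Rps27l before it, so the listed starts of these genes do not begin in a run. For genes with several listed starts, the one with the longest run is shown. An unbroken run of at least 8 bases within 25 bases of a start was present in 32 of 58 members (55.2%) and in 22.2% of 26967 other genes. A C at the start base followed by at least 4 further C or T bases was found in 22.4% of members and 2.97% of other genes. Over the whole 300-base promoters and on both strands, CTTCCG, the core of ETS factor sites, occurred in 70.7% of members and 18.7% of other genes, ATGGCG in 31.0% and 10.2%, CACGTG, the E-box bound by MYC, in 10.3% and 8.09%, and TATAAA in 10.3% and 15.7%. CACGTG reads the same on both strands, and none of these motifs contains another. Such matches describe letters in a window and not binding.

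Ribosomal protein transcripts made up a larger portion of the UMIs in T cells than in APCs. In the summed counts they took 34.6% of control and 35.6% of RGX-104 T cell UMIs, and 20.5% of APC UMIs in both libraries. The exact 95% intervals (Clopper-Pearson for a share, conditional binomial for a ratio) ran from 34.61% to 34.66% in control T cells and from 20.49% to 20.55% in control APCs. Such intervals hold counting error alone; how far mice or libraries would spread is not in them. The large subunit took 54.1% of the ribosomal protein UMIs in control T cells and 55.6% in control APCs, and over all 22 types and both libraries its part lay between 53.5% and 59.2%.

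Within the T cells, the pooled shares of the types fell into the same broad order in both libraries. CD8_01, CD8_02 and CD8_03 had the largest shares, at 38.7%, 38.3% and 37.1% in control and 39.6%, 40.1% and 38.2% in RGX-104. Th1_01, Th1_02, Th1_03 and the IFN-responsive T cells lay between 35.2% and 36.5% in control and between 35.2% and 36.4% in RGX-104. Neighbors in this group differed by less than the interquartile range over cells. The step to the CD8 types was small in control. There the median over cells was 36.2% in CD8_03, 36.1% in IFN-responsive T cells and 36.1% in Th1_03. Tfh (24.7% and 26.3%), gd T cells (24.3% and 26.4%), Cytotoxic T (22.7% and 24.7%) and Treg (21.5% and 23.1%) were lowest, in the range of dendritic cells. The Bcat1+ T cells lay apart from these groups at 31.3% and 31.8%. Types are clusters of the same cells whose genes include the members, so these levels are a description and were not tested.

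Among the APCs, the rcDC2 (25.1% in control and 24.3% in RGX-104) and rcDC1 (24.3% and 25.7%) had the largest shares of the compared types, which are those with 50 cells or more on both chows. The mcDC2 followed at 22.1% and 21.4%, then mLC at 19.3% and 19.2% and mono at 18.8% and 19.5%. The mcDC1 had the smallest, at 13.4% and 14.6%. Ccr7, the receptor that brings mature dendritic cells into the node, set mcDC1 and rcDC1 apart. It stood at 3563 and 3187 CPM in mcDC1 and at 69.6 and 96.3 CPM in rcDC1. Xcr1, a cDC1 receptor, stood at 297 and 354 CPM in rcDC1. Of the smaller types, pDC had 18.9% in 53 control cells and 18.6% in 9 RGX-104 cells. The cells named Gm26917+ mcDC had the lowest share of all, 5.91% in 12 control and 6.96% in 32 RGX-104 cells. Those cells were shallow, with medians of 1972 and 2048 UMIs, and the nuclear RNA Malat1 took 10.9% and 14.2% of their UMIs, against 1.08% in all control APCs.

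**Figure D1:**
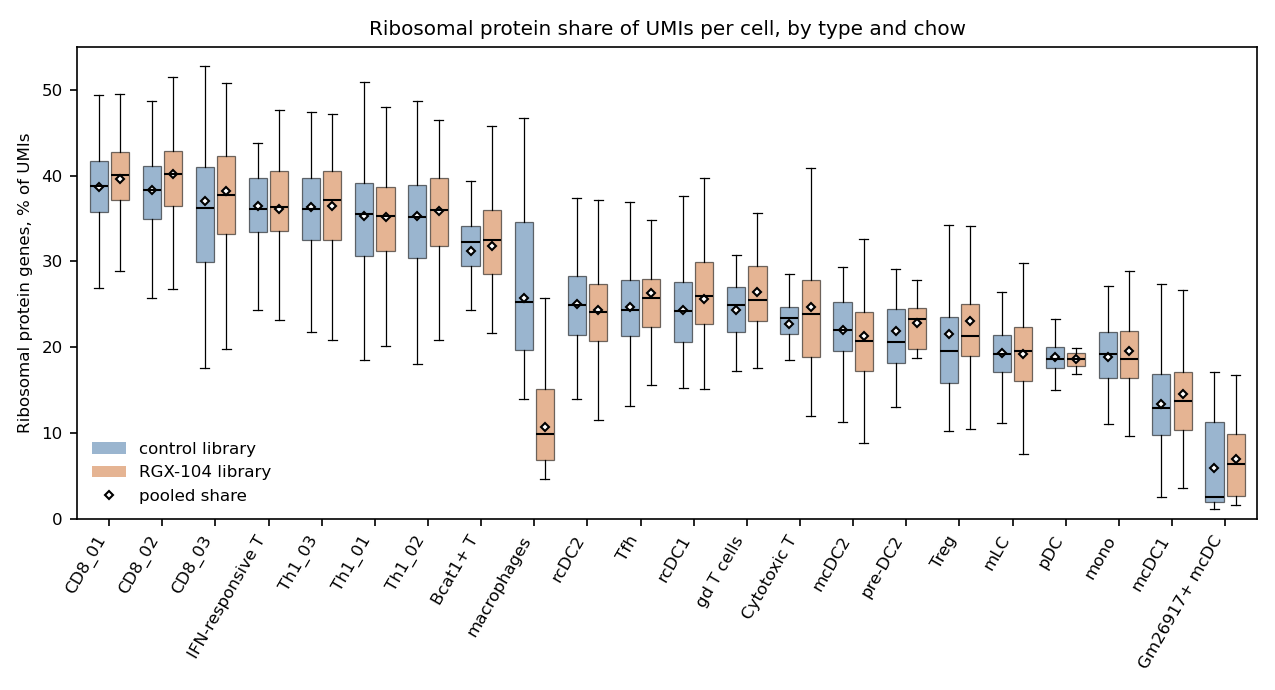
Share of each cell's UMIs (percent) that came from the 78 ribosomal protein genes, by the authors' cell type and library. Boxes give the quartiles over cells with the median, whiskers reach the last cell within 1.5 times the interquartile range, cells beyond them are not drawn, and diamonds are the pooled shares; types are ordered by the pooled control share, from CD8_01 at 38.7% to Gm26917+ mcDC at 5.91%.

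The rcDC1 share was 1.82 times that of mcDC1 in control and 1.76 times in RGX-104. In control 69 of 77 members were at least 25% higher in rcDC1, where 35.6% of all measured genes (those reaching 50 UMIs in the cells compared) were, and 70 of 77 in RGX-104, where 34.1% of genes were. Rpl10a, a protein of the large subunit, differed most, by log2 ratios of 1.83 and 1.64, and Rps27l went the other way, at -1.29 and -1.42. The rcDC2 and mcDC2 differed less: the share ratio was 1.14 in both libraries. 25 of 77 members (32.5%) were at least 25% higher in rcDC2 in control and 27 of 77 (35.1%) in RGX-104. These portions lay below the 42.0% and 46.7% of all measured genes. They lay above the 25.9% and 27.9% of genes with at least 1000 UMIs. Whether the contrast is larger in cDC1 than in cDC2 was not tested.

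The CD8_01 share was 1.80 and 1.72 times that of Treg. 76 of 77 members in control and 72 of 77 in RGX-104 were at least 25% higher in CD8_01, against 16.3% and 17.1% of genes. Of the members higher in CD8_01, Rps24, a small subunit protein, had the largest log2 ratios, 1.30 and 1.28; Rps27l, lower there, had -1.56 and -1.55. Against Tfh, whose share was lower by ratios of 1.56 and 1.51, 73 and 64 of 77 members were at least 25% higher in CD8_01 (15.5% and 16.0% of genes). The Th1_01 share was 1.64 and 1.53 times that of Treg, with 68 and 67 of 77 members at least 25% higher (19.0% and 20.9% of genes). It was 1.43 and 1.34 times that of Tfh, with 64 and 51 of 77 (16.7% and 18.9% of genes). Rps27l was the lowest member in these contrasts as well, with a log2 ratio of -2.50 between Th1_01 and Treg in control and -1.96 in RGX-104.

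Between the lineages, 76 of 78 members had more CPM in T cells than in APCs in each library. 68 of 78 were at least 25% higher in T cells in control, against 36.7% of genes, and 69 of 78 in RGX-104, against 39.7%. The median ratio over members was 1.66 in control and 1.70 in RGX-104. Rpl12, a protein of the stalk base of the large subunit (chr2:32961712-32964045), stood at 863 CPM in control APCs, 908 CPM in RGX-104 APCs, 2998 CPM in control T cells and 3207 CPM in RGX-104 T cells. Its T cell to APC ratio, 3.47 and 3.53, was the highest of the members. Rpl36a followed at 2.44 and 2.56 and Rps24 at 2.39 and 2.42. At the other end of the members that were higher in T cells lay Rpl10, with ratios of 1.09 and 1.08, and Rpl7a, with 1.11 and 1.12.

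The members that were lower in T cells both have symbols ending in l. Rps27l (chr9:66944624-66949522) stood at 491 and 514 CPM in APCs and at 116 and 125 CPM in T cells, ratios of 0.237 and 0.242. Being at least 20% lower in T cells was common among all genes, at 34.9% in control and 33.9% in RGX-104, against 2 of 78 members in each. Rpl39l, the paralog of Rpl39 known from testis, was near the limit of detection: its 42 control and 31 RGX-104 UMIs in APCs were 5.75 and 3.11 CPM, and its T cell values were 0.960 and 1.77 CPM.

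**Figure D2:**
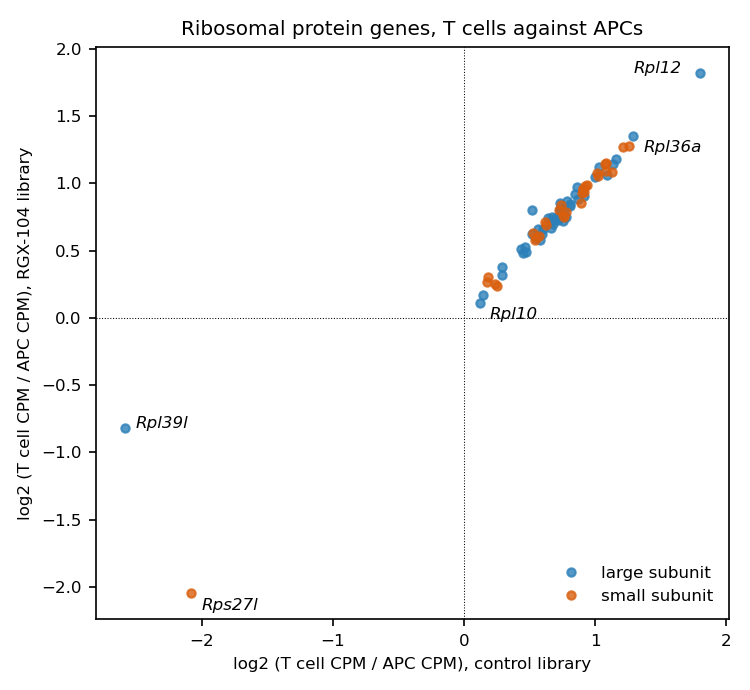
log2 ratio of the CPM in T cells to the CPM in APCs in the control library (horizontal) and the RGX-104 library (vertical), 1 point per member, colored by subunit. Rpl12 lies at the upper end, Rpl10 just above 0, and Rps27l and Rpl39l are the members below 0 on both axes; no error is drawn.

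By UMIs, which count molecules and were not divided by length, the most abundant member in T cells was Rps24, and Rps20, Rps16, Rplp1 and Rpl41 were among the 6 with most UMIs there. The Rps24 level in T cells was 12433 CPM on control chow against 12085 CPM on RGX-104 chow. In APCs, Rpl41, a very short protein of the large subunit, stood at 4990 and 5325 CPM and Rps24 at 5203 and 4994 CPM, so that Rps24 was the higher of the pair in control and Rpl41 in RGX-104. Rps19, Rpsa and Rps20 were also among the 6 members with most UMIs there over both libraries.

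Apart from the total, the make-up of the ribosomal protein UMIs differed between types in the same way in both libraries. Over the 14 types compared, each member's part of the ribosomal protein UMIs had a Pearson correlation between the libraries with a median of 0.943 over 77 members (range 0.433 to 0.993). The 14 points come from the same 2 libraries and clusters, and each library supplies all of its types. For 25 of 77 members the largest part was within 0.5 log2 units of the smallest on average over the libraries, and 10 members ranged over more than 1 log2 unit.

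Rps27l ranged most. Its part was 0.0134% of ribosomal protein UMIs in control Th1_02 and 0.604% in control mcDC1, and in RGX-104 0.0191% in Th1_01 and 0.606% in mcDC1. In CPM the order was mcDC1 (809 in control and 884.9 in RGX-104), mcDC2 (757 and 837) and mLC (699 and 715). rcDC1 (331 and 330), rcDC2 (334 and 275) and mono (241 and 270) formed a middle group together with Treg (270 and 262). Tfh followed at 150 and 168 CPM, and the CD8 and Th1 types lay between 47.4 and 136 CPM. Among the compared T cell types Rps27l was thus highest in Treg. Its paralog Rps27, another small subunit protein, had another order: its part was lowest in rcDC1 (0.805% and 0.952%) and highest in mLC (2.04% and 2.15%).

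Rpl12 was low throughout the APCs, from 0.286% of ribosomal protein UMIs in control mLC to 0.525% in RGX-104 rcDC2. It was high in the CD8 and Th1 types, with 0.926% and 0.958% in Th1_01. Rps19, a small subunit protein whose human gene is mutated in Diamond-Blackfan anemia, took 4.37% and 4.54% in mLC, 3.51% and 3.31% in mcDC1 and 2.67% and 3.04% in mcDC2, and between 1.35% and 1.98% in all other compared types. It stood at 8414 and 8730 CPM in mLC, above its level in each of the 8 compared T cell types, although mLC had a ribosomal protein share of only 19.3%. Rpsa, the laminin receptor protein of the small subunit, took 3.45% and 2.75% in mcDC1 and 3.11% and 3.01% in mcDC2, against 1.56% and 1.498% in mono. Rpl10a went the other way in the mature cells, with 0.461% and 0.440% in mLC, 0.533% and 0.561% in mcDC1 and at least 0.827% in mono, rcDC1, rcDC2 and all T cell types. Rpl7a was highest in mono (0.917% and 0.886%) and lowest in Th1_02 (0.442% and 0.399%). Many members have processed pseudogenes elsewhere in the genome, and how reads shared with such copies were counted is not given in the sources used here, so differences between genes carry that uncertainty, while the copies are the same for every type.

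**Figure D3:**
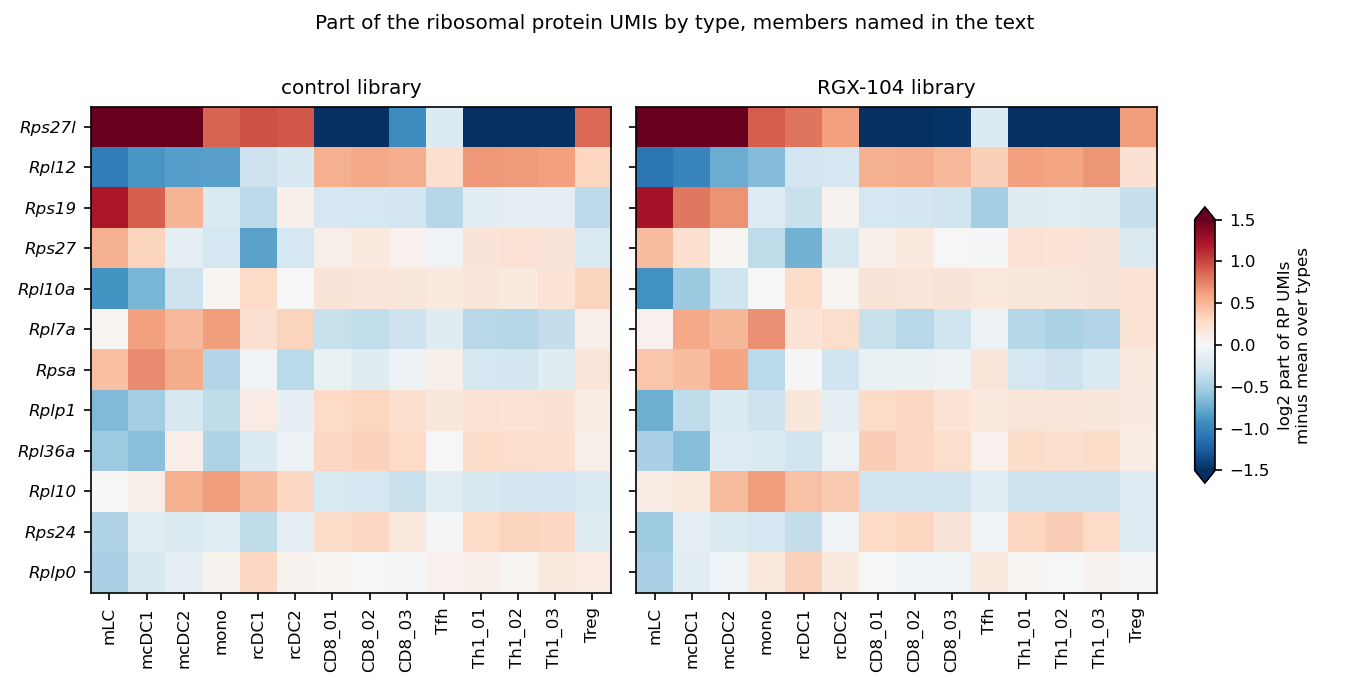
Part of the ribosomal protein UMIs taken by members named in the text that were among the 24 varying most over the 14 compared types, as log2 minus the mean of the row within the library (color, clipped at -1.5 and 1.5), control library left and RGX-104 library right. Rps27l is high in mLC, mcDC1 and mcDC2 and low in CD8 and Th1 types, Rpl12 is low in APCs, and Rps19 is high in the same 3 dendritic types as Rps27l.

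Outside the members, genes with at least 1000 UMIs were ranked by the Pearson correlation of their log2 CPM with the log2 ribosomal protein share over the 28 values of 14 types in 2 libraries. The share and every CPM have the same denominator, and the points share libraries and depth, so the ranking is a description. The highest were Rps3a1, a ribosomal protein that the symbol rule misses (0.977), the elongation factor Eef1a1 (0.972), the ribosome-bound scaffold Rack1 (0.962), Snhg8, Tpt1, Gm11808, Eef1g and Eef2, the translocation factor (0.916). Eef1a1 ranged from 3057 CPM in control mcDC1 to 7585 CPM in control Th1_03. The lowest were Nfkb2, a subunit of the alternative NF-kappa-B pathway (-0.953), Tmbim4, Rac1, CAAA01147332.1 and Cyba, a subunit of the phagocyte oxidase (-0.945). Nfkb2 ranged from 25.6 CPM in control Th1_03 to 319 CPM in control mcDC1.

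By list, 30 of 32 genes of ribosome assembly had a positive correlation, with a median of 0.695, against a median of -0.005 over 4893 other genes. The median was 0.341 for 42 translation factors and other genes with a TOP start, 0.562 for 13 genes of the mTORC1 and MYC axis, and 0.003 for 62 mitochondrial ribosomal proteins, 31 of them positive. The summed assembly genes took 0.333% of UMIs in control CD8_01 and 0.139% in control mcDC1, but also 0.362% in control Treg, where the ribosomal protein share was low.

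For the chow comparison, the RGX-104 to control ratio of the ribosomal protein share was 1.03 in T cells (95% interval 1.03 to 1.03) and 0.997 in APCs (0.995 to 0.999). Among the 8 compared T cell types, the interval lay above 1 in 6 and below 1 in 1. Tfh (1.07, interval 1.06 to 1.07) and Treg (1.07, 1.06 to 1.08) had the highest ratios, CD8_02 had 1.05, CD8_01 and CD8_03 had 1.03, Th1_02 had 1.02, and Th1_01 had 0.996 (0.992 to 0.9998). Among the 6 compared APC types it lay above 1 in 3 and below 1 in 2: mcDC1 had 1.09 (1.08 to 1.096), rcDC1 1.05, mono 1.04, mLC 0.998, rcDC2 0.969 and mcDC2 0.968. With 1 library per chow, an effect of the chow and a difference between the libraries cannot be told apart, and no test between chows was possible.

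These differences between libraries were small beside the spread over cells. In Treg the quartiles over cells were 15.9% and 23.5% in control and 19.0% and 25.1% in RGX-104, and in mcDC1 9.74% and 16.9% against 10.4% and 17.1%. With every cell thinned to 2000 UMIs, the mcDC1 ratio was 1.05 and the mono ratio 0.995. In cells with 3000 to 8000 UMIs, a window that leaves out many mcDC1 cells, they were 0.959 and 0.953. The APC value depended on the mix of types: without macrophages it was 1.03.

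In the pooled APCs and the pooled T cells, few single members differed between the chows by as much as other genes did. In APCs 1 of 78 measured members was at least 25% higher in RGX-104 (Rps29), where 10.4% of all measured genes were, and 1 was at least 20% lower (Rpl39l, from 42 and 31 UMIs), where 14.8% were. In T cells 1 of 77 was higher (Rps29), against 8.94% of genes, and 0 were lower, against 7.02%. The median log2 ratio over members was -0.027 in APCs and 0.035 in T cells, beside -0.06 and -0.01 over all measured genes. Of the measured genes, 2416 of 10346 in APCs and 2933 of 10214 in T cells had at least 1000 UMIs, as did 77 members in each. Counting error therefore weighs more on the percentages over all genes than on the members. Among genes with at least 1000 UMIs, the SD of the log2 ratios over 77 members was 0.098 in APCs and 0.101 in T cells, beside 0.350 and 0.197 over the other genes. The 3 compared types with the highest share ratios were mcDC1, Tfh and Treg. In mcDC1 13 of 77 members (16.9%) were at least 25% higher, near the 14.4% of genes. In Tfh 7 of 77 (9.09%) were, against 14.6% of genes, and in Treg 5 of 77 (6.49%), against 13.7%. At a ratio of 1.1, 9 of 78 members were higher in APCs (22.6% of genes) and 1 lower (35.8%), and in T cells 16 of 77 were higher (23.8%) and 1 lower (24.3%). At 1.5-fold no member was higher in APCs or T cells, where 4.14% and 2.92% of genes were.

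Rps29, a small zinc-binding protein of the small subunit (chr12:69157722-69159186), had the highest ratio in both lineages. APCs held it at 2681 and 3502 CPM (control, then RGX-104), a ratio of 1.31 (interval 1.28 to 1.33), and at 4541 and 5875 CPM in T cells, a ratio of 1.29 (1.28 to 1.31). In every one of the 14 compared types it was higher in the RGX-104 library, from 3300 and 4007 CPM in rcDC2 (ratio 1.21) to 1543 and 2373 CPM in mcDC1 (ratio 1.54). Averaging over cells instead of summing gave 1.24 in APCs.

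Rps28, which lies at the messenger RNA exit of the small subunit, followed at 2032 and 2405 CPM in APCs (ratio 1.18) and 3847 and 4754 CPM in T cells (1.24). Rpl38, a large subunit protein known from homeotic changes in mouse mutants, stood at 1753 and 2044 CPM in APCs (1.17) and at 2951 and 3599 CPM in T cells (1.22). Rps21 stood at 2438 and 2770 CPM in APCs (1.14) and at 4657 and 5487 CPM in T cells (1.18). Rpl23a and Rpl35 were at 1.14 and 1.12 in APCs and 1.19 and 1.15 in T cells.

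At the low end lay abundant members of both subunits. Rplp0, the base of the stalk that recruits elongation factors (chr5:115559467-115563729), stood at 3163 and 2932 CPM in APCs (ratio 0.927) and at 5349 and 4828 CPM in T cells (0.903, interval 0.892 to 0.913). Its interval lay below 1 in 11 of 14 types, the lowest being Th1_03 at 5965 and 5032 CPM (0.844). Rps7 stood at 6857 and 6392 CPM in T cells (0.932) and Rpl9 at 5297 and 5034 CPM (0.9503). In APCs Rpl9 stood at 3310 and 3103 CPM (0.937). The other stalk proteins did not share the low ratio: Rplp1 was at 1.01 in APCs and 1.02 in T cells, and Rplp2 at 1.03 and 1.08.

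Set against the summed ribosomal protein ratio of each type, 11 of 77 members were above it in all 14 types and 10 were below it in all 14. The relative log2 difference of Rps29 ran from 0.24 to 0.50 over the types (median 0.35), that of Rps28 from 0.16 to 0.36, that of Rpl38 from 0.14 to 0.34, and that of Rplp0 from -0.30 to -0.05 (median -0.17). All types came from the same 2 libraries, so their likeness is no replicate.

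The barcodes that the authors did not annotate, which are mostly shallower (medians of 1147 and 1161 UMIs), had like values: Rps29 was at 3125 and 4023 CPM (ratio 1.29), Rps28 at 1.23, Rpl38 at 1.21, Rps21 at 1.17 and Rplp0 at 0.920.

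**Figure D4:**
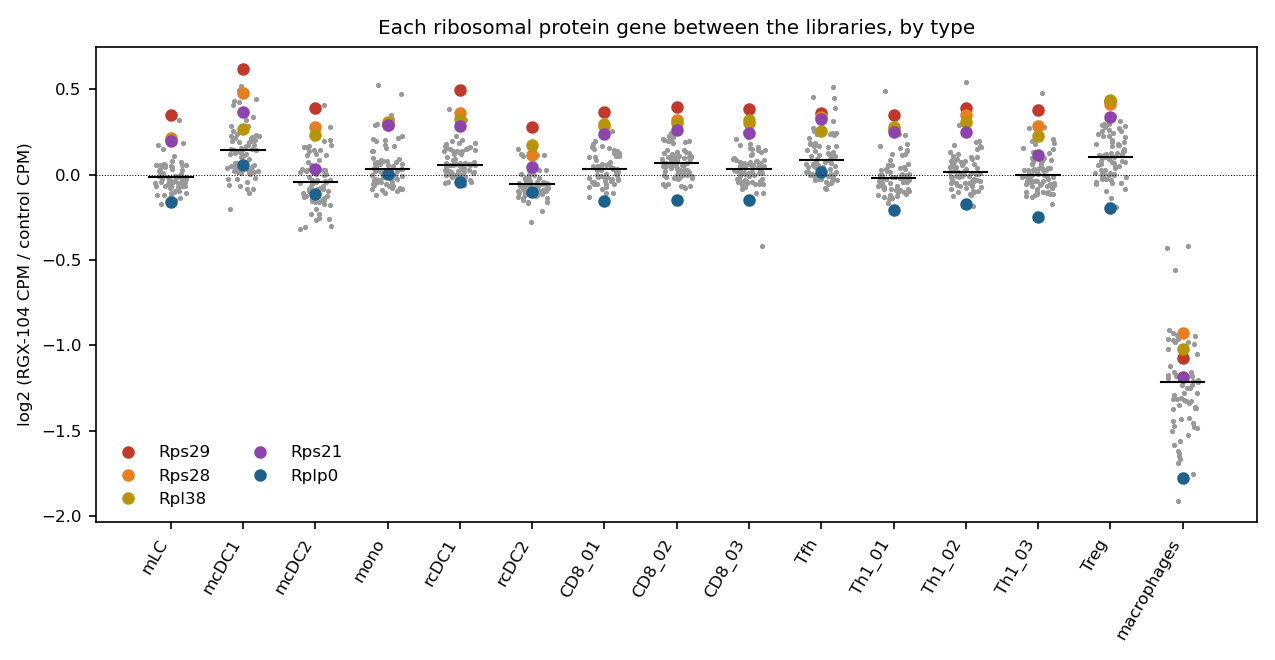
log2 ratio of RGX-104 CPM to control CPM of each measured member (grey points, spread sideways at random) in the 14 compared types and in macrophages, with the median as a bar and 5 members in color. Rps29 lies between 0.28 and 0.62 in the 14 types and Rplp0 between -0.25 and 0.06, while in macrophages all members lie below 0.

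The cells named macrophages stood apart. Their ribosomal protein share was 25.8% in 27 control cells and 10.7% in 52 RGX-104 cells, a ratio of 0.416 (interval 0.411 to 0.421). 77 of 77 measured members were at least 20% lower in RGX-104, against 28.0% of genes, with a median log2 ratio of -1.21. Lower values were not limited to the members. Over the 118 genes with at least 1000 UMIs the median was -0.92, but 55 of these were members, so it does not describe the other genes alone. Over all 2139 measured genes the median was 0.31. In a list of 50 other genes that encode small proteins, the 44 measured ones had a median of -0.75 (from -2.75 to -0.18). Rps12 was at 5952 and 1585 CPM (log2 ratio -1.91), Rplp0 at 4624 and 1348 CPM (-1.78) and Rps26 at 5338 and 1582 CPM (-1.75). The smallest differences were those of Rps27l, at 367 and 275 CPM (-0.42), and Rpl5, a large subunit protein that binds the 5S RNA, at 1008 and 747 CPM (-0.43).

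The cells behind these values differed in other ways. Median depth was 4415 UMIs in control and 11398 UMIs in RGX-104. A median control cell had 1305 ribosomal protein UMIs and 2964 others, and a median RGX-104 cell 1233 and 9433. A C1qa UMI was found in 48.1% of control cells (interval 28.7% to 68.1%) and 84.6% of RGX-104 cells (71.9% to 93.1%), beside 0.286% and 1.05% of T cells, whose median depths were 4944 and 5048 UMIs. In cells with a C1qa UMI the share was 20.2% in control and 10.3% in RGX-104, and in cells without one 33.0% and 14.2%. In cells under 6000 UMIs it was 27.9% and 15.7%, and in cells with 6000 UMIs or more 23.5% and 10.3%. The ratio was 0.508 in cells with a C1qa UMI and 0.555 in cells with 3000 to 8000 UMIs. Mitochondrial ribosomal proteins, which are made by another set of genes, had a median log2 ratio of -0.96 in these cells, with 22 of 23 measured at least 20% lower, and translation factors and other TOP genes a median of -0.43, beside 0.31 over all measured genes. With fewer than 50 cells in the control library, the type was not among those compared. A UMI of Cd3e or of the B cell gene Cd79a was found in 2 control and 9 RGX-104 cells of this type. The same macrophages may have changed, other macrophages may have been present, or cells of other types may carry this name. These cannot be told apart and were not tested.

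**Figure D5:**
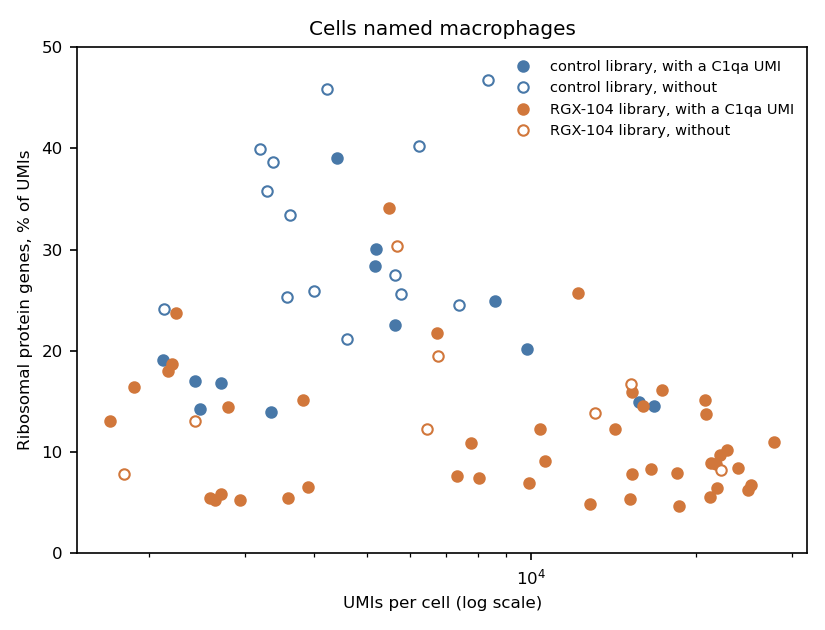
Share of UMIs from ribosomal protein genes (percent) against total UMIs (log scale) for the 27 control and 52 RGX-104 cells named macrophages, 1 point per cell, filled where the cell has a C1qa UMI. Control cells lie between 13.9% and 46.8% and RGX-104 cells between 4.66% and 34.1%, and the RGX-104 cells reach greater depth.

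The genes that build ribosomes and use them were compared between the chows in the same way, with no test of a difference from the members. The mix of types in the pooled APCs differed, with 27 control and 52 RGX-104 macrophages and 53 and 9 pDC. The part of this mix in the APC values was not tested. In APCs the median log2 ratio of 53 measured assembly genes was -0.23, with 16 at least 20% lower, where 14.8% of all measured genes were, and 0 at least 25% higher, where 10.4% were. The genes named from each list were chosen for the largest ratios either way. Nle1, a factor of the large subunit, stood at low levels, 7.25 and 3.42 CPM. Tsr1, a factor of the small subunit, stood at 16.4 and 10.9 CPM. In T cells the median was -0.07, with 2 of 53 at least 20% lower, where 7.02% of genes were: Nop58, a core protein of the C/D small nucleolar particles, at 110 and 80.1 CPM, and Gar1, of the H/ACA particles, at 74.2 and 57.0 CPM. The translation factors and other TOP genes had medians of -0.08 and -0.04 in APCs and T cells, where Eef1d stood at 285 and 224 CPM in APCs. Of 78 mitochondrial ribosomal proteins, 11 were at least 20% lower and 1 at least 25% higher in APCs, and 5 and 1 in T cells; the counts of lower genes were close to the 14.8% and 7.02% of all genes. The medians of this list were -0.15 and -0.11. In the mTORC1 and MYC axis, Slc3a2, the heavy chain of amino acid carriers, stood at 131 and 173 CPM in APCs.

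Cell cycle phase, as the authors called it, went with the share in some types. Control T cells called G1 had 35.7% ribosomal protein UMIs, those called S 34.5% and those called G2M 30.6%, and the RGX-104 values were 36.7%, 35.6% and 32.1%. In rcDC1 the shares were 25.7%, 23.0% and 20.1% in control and 27.2%, 24.3% and 20.6% in RGX-104. Th1_02 differed less, with 35.3%, 35.7% and 34.2% in control. By clone size, T cells whose receptor was seen in 1 cell had 34.7% and 35.2%, and those of clones with 2 or more cells 35.3% and 36.6%. Within CD8_01 the values were 38.6% and 39.5% for single cells and 38.3% and 39.3% for clones, so the pooled difference was not seen there.

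How closely the share went with depth differed between T cell types and between libraries. The highest Spearman's rho in control was that of CD8_03. Over its 176 control cells rho between the share and total UMIs was 0.597, and over 182 RGX-104 cells 0.461; cells of 1 library are not replicates. Th1_02 had 0.557 in control and 0.362 in RGX-104. The lowest values in control were 0.150 in Tfh, -0.026 in Cytotoxic T, -0.033 in Bcat1+ T and -0.072 in gd T cells. In RGX-104 the same types had 0.295, 0.221, 0.111 and 0.165. There CD8_01, at 0.196 after 0.292 in control, lay below Tfh and Cytotoxic T. Control CD8_03 cells with 3000 to 5000 UMIs had 29.6% and those with 8000 to 12000 UMIs 40.4%. Over all T cells the deepest cells, with 20000 to 60000 UMIs, had 26.0% in control and 27.8% in RGX-104. The part of depth in the differences between types was not tested.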

How the data were processed

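Sorted T cells and APCs were measured in 2 RNA libraries. UMI counts were deposited as 1 matrix per library, whose file header names Cell Ranger 5.0.0. Build mm10 and Seurat 5.0.3 are named in the notes of the submitters on processing. The annotation tables that the authors deposited give the mitochondrial share in percent, cell cycle score columns, phase, clone size and type. They hold no barcodes, so each of 5825 cells was joined by total UMIs, genes detected (over genes in at least 3 barcodes) and mitochondrial percent, and each matched exactly 1 barcode. The authors' doublet column names all annotated cells singlets, and no caller was run.

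Counts were summed per type and library and divided by the total (CPM). Measured genes are those reaching 50 UMIs in the cells compared, and types were compared with at least 50 cells in each. No test was run between chows. The intervals were tested on simulated counts that held counting error alone, so spread between mice or libraries was not covered. Named members are the 6 with most UMIs per lineage, the 3 highest and 3 lowest ratios per comparison by the interval bound nearest to 1, the 8 that vary most over types and those ending in l. To these come up to 4 genes per list and the 8 most and 5 least correlated genes. Some genes this rule names are not reported here. Members and lists were chosen with earlier results of these data known. Alternatives used other denominators, weights, depths, minimums, folds and scalings (edgeR 4.0.16 in R 4.3.3 for TMM factors). Python 3.11.15, numpy 2.4.6, scipy 1.17.1, pandas 2.3.3 and matplotlib 3.10.9 were used. The T cell receptor libraries were not used here.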

Additional observations from a re-analysis of the deposited data

Results flagged for a closer look

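Among the 14 compared types and macrophages, 4 had a ratio of the ribosomal protein share whose whole interval lay below 1 while that of other types of their lineage lay above 1: macrophages at 0.416, mcDC2 at 0.968 and rcDC2 at 0.969 among APCs, and Th1_01 at 0.996 among T cells. Each rests on 1 library per chow, and the difference between types was not tested.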

How the results depend on the processing

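No paired analysis was possible because each chow has 1 RNA library and the labels give no pairing. The cause was not tested for any change named here. For all APCs, the share ratio of 0.997 turned to 1.01 as the mean over compared types and to 1.03 without macrophages. It was 0.971 as a mean over cells, 0.992 as a median, 0.974 in cells thinned to 2000 UMIs, 0.953 in cells with 3000 to 8000 UMIs and 0.999 in G1 cells. Without 1 type it was 0.999 (Gm26917+ mcDC), 0.994 (mLC), 0.987 (mcDC1), 0.993 (mono), 0.992 (pDC), 0.988 (rcDC1) and 0.985 (rcDC2). For all T cells, the ratio of 1.03 stayed above 1 in all of these: 1.04 as a mean over cells, 1.03 as a median, thinned, in the depth window, without the deepest 5%, with another denominator and with Rps3a1. Without 1 type it was 1.03 (Bcat1+ T, CD8_01, Cytotoxic T, Th1_01, Th1_03) or 1.02 (CD8_02, Tfh, Treg, gd T cells).

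Single types turned as follows. mcDC1 was at 0.959 in the depth window. mono was at 0.993 as a mean, 0.967 as a median, 0.995 thinned and 0.953 in the window. Th1_01 was at 1.01 as a mean and without the deepest 5%, at 1.0043 thinned and at 1.0024 in the window. Macrophages ran from 0.385 to 0.555.

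The median log2 ratio of members in APCs, -0.027, was 0.036 with TMM and with median-of-ratios factors, which shifted all genes by 0.06, and -0.066 as a mean over cells. In mcDC2 it was 0.074 and 0.083, after shifts of 0.12 and 0.13. In T cells it was 0.016 with median-of-ratios factors, 0.062 over the total of other genes and 0.050 as a mean over cells. The count of members at least 25% higher in APCs, 1, was 9 at 1.1-fold and 0 at 1.5-fold and as a mean over cells; the count lower was 0 with at least 200 or 1000 UMIs. In T cells the count higher was 16 at 1.1-fold, 0 at 1.5-fold, and 2 over the total of other genes, with at least 10 UMIs and as a mean over cells; the count lower was 1 at 1.1-fold. Depth limits Rpl39l most, at under 50 UMIs per library.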
